A study of Rattus norvegicus with 6 samples.

Results

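Macrophage receptors and the chains of complement C1q were followed in rat pancreas over 10 genes, Cd14, Mrc1, Marco, Msr1, Cd163, Cd68, Csf1r, C1qa, C1qb and C1qc. A gene was included when a non-control probe of the array carried a RefSeq accession that a current rat gene table gives to that symbol. This held for 9 of the 10 genes, each with 1 probe on 1 spot, out of 13897 genes that could be named on the array, and no probe mapped to Msr1. Of these 9, 8 were bright enough on at least 3 of the 6 scans to be tested, out of 8726 genes tested in all, and Cd163 was not.

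All RNA came from the pancreas of male rats of 6 weeks, whose strain is not in the labels. In the rats labelled AP, acute pancreatitis had been induced by injecting 4% sodium taurocholate, a bile salt, at 1 mL/kg backwards into the pancreatic duct, and the gland was taken 9 h later. For the rats labelled control the labels give no separate treatment, and they do not say whether the duct was handled. The 1-colour Agilent arrays were deposited as 3 scans per group, but AP 2 and AP 3 were 2 scans of 1 array and so were control 2 and control 3 (spot deviations correlated across 2083 spots with r = 0.995 and 0.997, against 0.433 to 0.831 for all other pairs). All tests therefore compared 2 AP arrays with 2 control arrays, which limits the precision of every value, and the p-values measure only the spread between these arrays. Slots 3 and 4 of the slide held the AP arrays and slots 1 and 2 the control arrays, so slot and group cannot be told apart.

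Neutrophil genes, known to rise in an inflamed pancreas, were lower on the arrays labelled AP, so directions here follow the deposited labels only. S100a8, a calcium-binding protein of neutrophils, was not well above background on the AP arrays and at least 90.7-fold lower there than on control arrays (limma, adjusted p = 0.00067). The AP scans were dimmer, with a 75th percentile of signal of 70.2 to 77.7 against 140.4 to 147.3 on the control scans. Values were therefore expressed as log2 signal relative to the 75th percentile of the array, on which scale the median log2 fold change over all 8726 genes was -0.03 (AP minus control), whereas it was -0.99 without scaling. Each change below is therefore a change against the brightness of its array. A rise or fall given below as a number without the word fold is in log2. Acinar markers were present in both groups, with a summed level of 41.6 to 42.8 times the 75th percentile on AP arrays and 38.1 to 38.6 on control arrays, although the acinar transcription factor Ptf1a was at background in both. Single acinar markers were not level between the groups: 6 of 8 tested were called higher on AP arrays and 0 lower (median log2 fold change 0.85). Over all genes tested, 24.1% were higher and 31.9% lower. Without scaling 1 of the 8 was higher and 2 were lower, where 5.31% of all genes were higher and 62.4% lower. The sum is carried by Cela2a and Pnlip, which were not called.

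Macrophages live in the connective tissue of the resting pancreas and are joined after injury by monocytes from the blood. Their scavenger receptors bind modified lipoproteins, microbes and debris of dead cells, CD14 passes bacterial lipopolysaccharide to Toll-like receptor 4, and the CSF1 receptor keeps most macrophages alive. C1q is assembled from the products of C1qa, C1qb and C1qc, is made largely by macrophages, and starts the classical complement pathway once bound to antibody or to dying cells.

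Macrophage genes did not move as one group. Cd14 and Mrc1 fell on the arrays labelled AP, Marco and, by a small margin, Csf1r rose, and the 3 C1q genes and Cd68 did not pass the test. Called lower were thus 2 of the 8 tested genes, against 31.9% of all genes tested, and called higher were also 2, against 24.1% of all genes tested, where a call is an adjusted p below 0.05. The median log2 fold change of the 8 was 0.14. In the plot of signal by scan the groups lie far apart for Cd14, Mrc1 and Marco and close together for C1qa and C1qc.

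**Figure D1:**
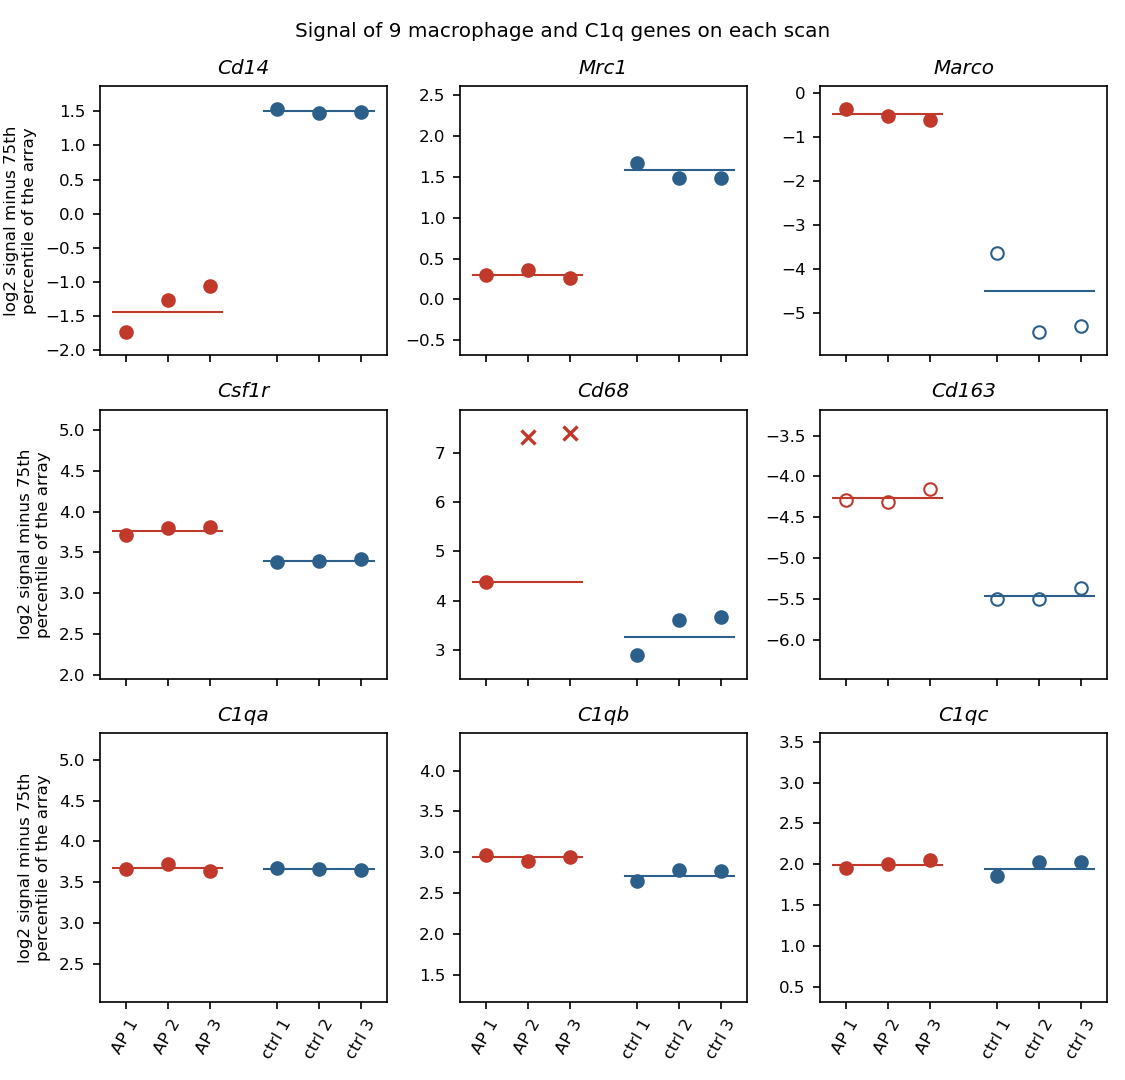
Log2 signal minus the 75th percentile of the array (vertical axis, own range per gene) on each of the 6 scans, AP scans in red and control scans in blue; lines are group means over arrays, open circles are not well above background and crosses carry an outlier mark. Cd14 and Mrc1 lie lower and Marco higher on all AP scans than on all control scans, while the groups overlap for C1qa and C1qc.

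Cd14, the surface receptor that hands lipopolysaccharide to Toll-like receptor 4, had the strongest fall of the 8 tested genes. Its signal was 23.3, 29.2 and 35.4 intensity units on scans AP 1, 2 and 3, against 425, 391.5 and 412 on control 1, 2 and 3. All AP scans lay far below all control scans before any scaling, and the groups did not overlap. Relative to the 75th percentile, Cd14 stood at -1.45 ± 0.41 on AP arrays and 1.51 ± 0.03 on control arrays (log2, SD, n = 2 each). It was 7.77-fold lower (log2 fold change -2.96 ± 0.23, SE, adjusted p = 0.00259), more than the spread between arrays. In this bulk tissue, fewer cells that make the RNA and less RNA per cell cannot be told apart, for Cd14 and for every gene below.

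Mrc1, the mannose receptor, takes up glycoproteins and microbes and is typical of resident macrophages. It read 95.9, 89.6 and 88.2 on the AP scans, against 469.8, 393.1 and 409 on the control scans. Again every AP scan was below every control scan, and both AP arrays stood at 0.30 relative to the 75th percentile, against 1.67 and 1.49 on the control arrays. The fall was 2.42-fold (log2 fold change -1.28 ± 0.11, SE, over 2 arrays a group, adjusted p = 0.0034). Both Cd14 and Mrc1 were called lower under all 20 alternative settings, with log2 fold changes of -3.91 to -1.42 for Cd14 and -2.23 to -0.73 for Mrc1.

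Marco, a collagenous scavenger receptor that binds bacteria and particles and is known in the mouse from marginal zone macrophages of spleen and lymph node and from alveolar macrophages, changed the other way. Its spot gave 60.1, 48.7 and 48.0 on the AP scans, all well above background, against 11.9, 3.24 and 3.67 on the control scans, of which 0 of 3 were. The AP scans exceeded the control scans although the AP arrays were dimmer as a whole. Since the control arrays give only a bound, the rise relative to the 75th percentile was at least 9.13-fold. This bound was measured against the lowest signal that counted as well above background. Measured log2 levels were -0.47 ± 0.14 on AP and -4.50 ± 1.23 on control arrays (SD, n = 2 each, limma, adjusted p = 0.0123). With normexp background the log2 fold change of Marco was only 1.03 with the 75th percentile and 0.82 with quantile normalization. The bound therefore does not hold under those settings. The adjusted p was 0.0603 without the first AP array and 0.0578 without the second. Marco passed the filter on dim probes through the AP scans alone.

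Cd163, the receptor for haemoglobin bound to haptoglobin, had signals of 3.52 to 4.14 on the AP scans and 3.11 to 3.52 on the control scans. It was not well above background on any of the 6 scans, so no fold is given. Cd68, a lysosomal glycoprotein long used to stain macrophages, gave 1619, 11290 and 12530 on the AP scans, against 1089, 1722 and 1858 on the control scans. Both scans of the second AP array carried the outlier mark of the scanner software at this spot and were left out, which left Cd68 with 1 AP array at 4.38 against 2.89 and 3.64 on the control arrays. The log2 fold change of 1.12 ± 0.42 (SE, 1 AP and 2 control arrays, adjusted p = 0.126) did not pass the test, and with the marked spots kept it was 2.60 with adjusted p = 0.131.

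Csf1r encodes the receptor for CSF1 and interleukin 34, the growth factors on which macrophages depend. Signals were 1015, 977 and 1039 on the AP scans, against 1544, 1478 and 1562 on the control scans, so the AP scans were the lower ones before scaling. Relative to the 75th percentile the order turned, with 3.71 and 3.81 on the AP arrays against 3.39 and 3.41 on the control arrays, and the groups did not overlap on either scale. The scaled rise was 1.28-fold (log2 fold change 0.36 ± 0.10, SE, over 2 arrays a group, adjusted p = 0.0452). It lost its call without any 1 of the 4 arrays (adjusted p 0.0907 to 0.151), and without scaling Csf1r was lower on the AP arrays (-0.60, adjusted p = 0.0101).

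The 3 C1q genes lie next to each other on chromosome 5 in the order C1qb, C1qc, C1qa in the rat assembly GRCr8. C1qa read 983, 924 and 916 on the AP scans, against 1877, 1782 and 1835 on the control scans. On the scaled values the groups coincided at 3.67 ± 0.01 on AP and 3.67 ± 0.01 on control arrays (SD, n = 2 each), a log2 fold change of 0.0028 (95% confidence interval -0.26 to 0.26, adjusted p = 0.981). The interval of Mrc1, -1.60 to -0.95, lies wholly below that of C1qa.

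For C1qb the signals were 609.5, 520.4 and 567 on the AP scans, against 922, 968 and 991 on the control scans. Scaled levels were 2.97 and 2.91 on the AP arrays and 2.65 and 2.77 on the control arrays, which did not overlap, but the log2 fold change of 0.23 did not pass the test (interval -0.06 to 0.53, adjusted p = 0.137). C1qc gave 299.7, 280.6 and 306 on the AP scans and 535, 573 and 597 on the control scans. Its scaled levels overlapped, at 1.95 and 2.03 on the AP arrays and 1.86 and 2.03 on the control arrays, with a log2 fold change of 0.04 (interval -0.28 to 0.37, adjusted p = 0.782). Under quantile normalization C1qb was called higher (0.41, adjusted p = 0.0331), which made 3 tested genes called higher against 22.9% of all genes and left 2 called lower against 30.8%.

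Without scaling, the C1q genes were lower on the AP arrays, as was the array as a whole. Unscaled log2 fold changes were -0.95 for C1qa, -0.72 for C1qb and -0.92 for C1qc, all called lower, beside a median of -0.99 over all genes. On that scale 6 of the 8 tested genes were called lower, against 62.4% of all genes, and 1, Marco, was called higher, against 5.31%. The plot of fold changes by scaling shows that Cd14, Mrc1 and Marco kept their direction under each of the 5 scalings and that Csf1r did not.

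**Figure D2:**
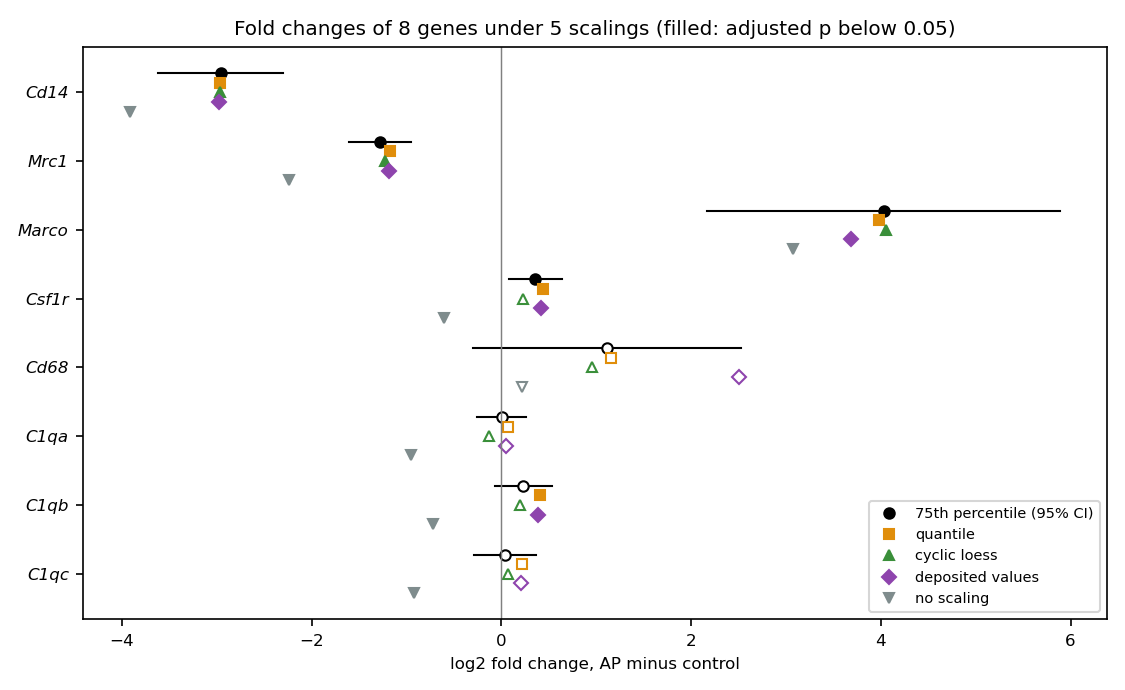
Log2 fold change (AP minus control, horizontal axis) of the 8 tested genes under 5 scalings; filled symbols have an adjusted p below 0.05, and bars are 95% confidence intervals of the fit on 75th percentile values. Cd14 and Mrc1 are below 0 and Marco above 0 under each scaling drawn, whereas Csf1r lies at 0.36 with the 75th percentile and at -0.60 with no scaling.

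Differences between genes on the same array do not depend on a shift common to the whole array. Cd14 minus C1qa was -5.40 and -4.84 in log2 on the AP arrays, against -2.14 and -2.17 on the control arrays. Mrc1 minus C1qa was -3.36 and -3.37 on the AP arrays, against -2.0 and -2.17 on the control arrays. These differences did not overlap between the groups, and show unequal change of the genes, by 2.96 for Cd14 and 1.28 for Mrc1, not which of them was constant.

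Csf1r minus C1qa was 0.05 and 0.13 on the AP arrays and -0.28 and -0.25 on the control arrays. C1qc minus C1qa overlapped between the groups, at -1.71 and -1.65 on the AP arrays and -1.81 and -1.63 on the control arrays. Cd14 minus Mrc1 was -2.04 and -1.47 on the AP arrays, against -0.14 and 0.0018 on the control arrays, so these genes changed unequally too. With 2 arrays against 2, an exact permutation test of one such difference cannot give a two-sided p below 0.333.

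**Figure D3:**
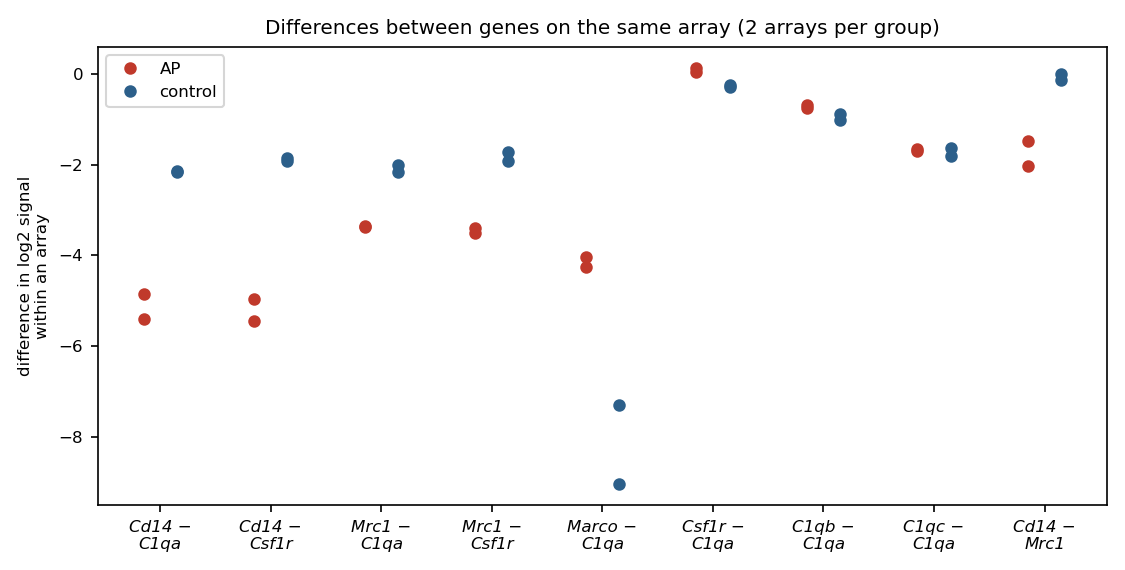
Difference in log2 signal between 2 genes on the same array (vertical axis) for 9 pairs of genes, AP arrays in red and control arrays in blue, 2 arrays per group. Cd14 and Mrc1 lie further below C1qa and Csf1r on the AP arrays than on the control arrays, while C1qc minus C1qa overlaps between the groups; Marco was below background on the control arrays.

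PU.1, the product of Spi1, is a transcription factor that many macrophage genes need, and RefSeq gave a promoter window in GRCr8 for 8 of the 10 genes. Its core GAGGAA, searched on both strands in the 250 bases before the annotated start, was in 6 of these 8 windows (Cd68, Cd14, Mrc1, Marco, Csf1r and C1qb), against 23.3% of 33469 windows of the same length. The C/EBP site TTGCNNAA was in 0 of 8 against 9.22% of all windows, the AP-1 site TGANTCA in 1 (Cd68) against 6.34%, and the NF-kappaB site (GGGA and CC with 4 bases of any kind between them) in 2 (Cd163 and C1qb, whose 2 matches overlap each other) against 16.4%. A match is a description of letters and does not show that the factor binds. Windows are printed 5′ to 3′ on the strand of the gene for both genes that fell, Cd14 (chr18:28611159-28611408, minus strand) and Mrc1 (chr17:82157475-82157724, plus strand), and for 2 C1q genes that did not pass the test, C1qa (chr5:154419934-154420183, minus strand) and C1qb (chr5:154407828-154408077, minus strand). Capitals mark GAGGAA or its reverse complement.
Cd14: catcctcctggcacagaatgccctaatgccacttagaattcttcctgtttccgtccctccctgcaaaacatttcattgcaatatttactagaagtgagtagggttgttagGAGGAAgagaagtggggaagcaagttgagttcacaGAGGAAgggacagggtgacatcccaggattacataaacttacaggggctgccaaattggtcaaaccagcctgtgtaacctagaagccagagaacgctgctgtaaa
Mrc1: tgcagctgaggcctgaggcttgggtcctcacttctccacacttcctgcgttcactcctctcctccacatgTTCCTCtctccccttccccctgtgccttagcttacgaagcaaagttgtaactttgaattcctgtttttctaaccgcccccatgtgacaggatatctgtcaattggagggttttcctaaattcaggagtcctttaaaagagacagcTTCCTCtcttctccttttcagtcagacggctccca
C1qa: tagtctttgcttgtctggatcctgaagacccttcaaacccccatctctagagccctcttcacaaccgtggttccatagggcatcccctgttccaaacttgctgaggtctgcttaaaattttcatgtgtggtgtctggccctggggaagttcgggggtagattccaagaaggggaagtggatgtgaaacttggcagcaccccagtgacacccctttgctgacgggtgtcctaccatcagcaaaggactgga
C1qb: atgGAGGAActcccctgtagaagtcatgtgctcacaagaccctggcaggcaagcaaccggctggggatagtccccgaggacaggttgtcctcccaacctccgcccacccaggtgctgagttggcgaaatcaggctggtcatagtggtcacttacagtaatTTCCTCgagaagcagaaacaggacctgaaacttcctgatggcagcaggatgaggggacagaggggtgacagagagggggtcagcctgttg
The matches begin 140 and 105 bases before the start of Cd14, 180 and 35 before that of Mrc1 and 247 and 90 before that of C1qb, and the C1qa window holds none. A match was thus present both in genes that fell and in C1qb, which did not pass the test.

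Among genes linked to Cd14, Tlr4, Tlr2, Tlr6 and Myd88 fell, Ly96 rose and Lbp did not pass the test. Of 12 genes of the CD14 and Toll-like receptor 4 pathway with a probe, 10 were tested, 5 fell, 3 rose and 2 did not pass (median log2 fold change -0.46), beside 31.9% lower and 24.1% higher over all genes. The rises depended on the scaling, since without scaling 0 were higher and 7 lower, and with quantile normalization 1 was higher and 5 lower. Over all genes, 5.31% were higher and 62.4% lower without scaling, so the 7 lower are near that share. With quantile normalization 22.9% of all genes were higher and 30.8% lower. Tlr4, the signalling receptor itself, was well above background on 0 AP scans and all 3 control scans, and was at least 4.81-fold lower (adjusted p = 0.00121). Tlr2 and Tlr6, receptors for bacterial lipopeptides, were at least 2.37-fold (limma, adjusted p = 0.001) and 2.66-fold lower (0.00341). Like Tlr4, Tlr2 and Tlr6 were well above background on control scans alone. These 3 genes, all among the falls counted above, passed the filter on dim probes through the control scans only. Myd88, the adaptor below these receptors, had a log2 fold change of -1.24 (0.00269). Ly96, which encodes the lipopolysaccharide-binding partner of TLR4, rose by 0.79 (adjusted p = 0.0154) but stood at -0.17 without scaling. Lbp, the plasma protein that loads CD14, had a log2 fold change of -0.07 (adjusted p = 0.862), or -1.03 and called lower without scaling (0.0281).

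The ligands of the CSF1 receptor moved apart. Csf1 was well above background on 0 AP scans and all 3 control scans and was at least 8.65-fold lower (adjusted p = 0.00072). Il34, the other ligand, rose by 0.55 (adjusted p = 0.0405), with -0.40 without scaling. In the list of these ligands and related growth factor genes all 9 tested were called, 6 lower and 3 higher (median -1.13). Of all genes, 31.9% were lower and 24.1% higher. Without scaling 6 of the 9 were lower and 1 was higher, where 62.4% of all genes were lower and 5.31% higher. Csf3r, the receptor for granulocyte colony-stimulating factor, was at least 3.07-fold lower, and Kit, the stem cell factor receptor, at least 1.09-fold lower. Plcg2, a phospholipase downstream of immune receptors, rose by 2.22 in log2.

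Most complement genes tested were lower on the arrays labelled AP, those of the classical pathway and others. Of 18 components with a probe, 12 were tested, 9 fell, 2 rose and 1 did not pass, with a median of -2.07, beside 31.9% lower and 24.1% higher over all genes. Of the 2 that rose, named after their values were seen, the lectin Mbl2 had a value on 1 AP array and was not called without scaling (adjusted p = 0.289), and the ficolin Fcna was still higher there (1.14, adjusted p = 0.00437). The proteases that C1q carries both fell, C1r with scaled levels of 2.93 and 2.93 on the AP arrays against 4.5 and 4.55 on the control arrays (log2 fold change -1.60 ± 0.09, SE, adjusted p = 0.00151), and C1s with 2.78 and 2.77 against 3.69 and 3.82 (-0.98 ± 0.10, adjusted p = 0.00466). No value of the AP arrays overlapped the control arrays for either gene. The difference between these changes and those of the C1q genes was not tested.

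C3, the centre of all complement pathways, fell by 1.70 (adjusted p = 0.00137), and C4a, which C1s cleaves, by 2.45 (0.00409), with a value on only 1 control array. C4b had no usable control spot, and since C4a and C4b are near-identical, their probes may share signal. The strongest falls of this list were those of C6, a part of the membrane attack complex (-4.51), Cfb and Cfd, proteases of the alternative pathway (-4.44 and -4.12), and Fcnb, a ficolin made by neutrophils and monocytes (-3.28), with adjusted p of 0.000626 to 0.000759. Adipocyte markers, which moved with Cfd, a gene also called adipsin, had a summed level of 11.3 to 11.5 on AP arrays and 359 to 370 on control arrays, with 4 of 5 lower and none at background, and their part in the result was not tested.

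Of 10 tested complement receptors and regulators, 4 fell, 1 rose and 5 did not pass (median -0.57), beside 31.9% lower and 24.1% higher over all genes. Without scaling all 10 were called lower (median -1.53), on which scale 62.4% of all genes were lower. Cd93, a receptor once described as one for C1q, fell by 3.52 (adjusted p = 0.000689) and C1qbp, a mitochondrial protein that also binds C1q, by 0.57 (0.0177). C4bpa, an inhibitor of C4b, was called lower with no signal well above background on the AP arrays, and its fold has no bound above 1. Clu, a chaperone that blocks the membrane attack complex, rose by 0.55 (0.0179) but was lower without scaling (-0.41, adjusted p = 0.0319). Serping1, the C1 inhibitor, did not pass, with 2.61 and 3.24 on the AP arrays and 3.36 and 3.64 on the control arrays (adjusted p = 0.153), and was called lower without scaling (-1.53, adjusted p = 0.00614).

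Of 12 other scavenger receptors tested, 6 were lower, 1 higher and 5 not past the threshold (median -0.48). Over all genes 31.9% were lower and 24.1% higher. Without scaling, 10 of the 12 were lower and 1 higher, where 62.4% of all genes were lower and 5.31% higher. Cd36, a receptor for oxidised lipoproteins and fatty acids, fell by 3.71 (adjusted p = 0.000649), with scaled levels of -1.68 and -1.54 on the AP arrays against 2.11 and 2.08 on the control arrays. Cxcl16, a transmembrane chemokine that binds oxidised lipoprotein, fell by 2.09 (0.00151) and Scarb2, a lysosomal membrane protein, by 2.04 (0.00103). Cd6, which encodes a T cell protein of the scavenger receptor cysteine-rich family, was the gene called higher, at least 7.47-fold (adjusted p = 0.0289); it was well above background on 0 control scans and passed the filter on dim probes through the AP scans alone. T cell markers were higher for 8 of 8 genes, with a summed level of 42.3 to 43.5 on AP arrays and 3.40 to 4.08 on control arrays, where Trat1 was at background.

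Genes that handle haemoglobin and haem, the cargo of Cd163, fell in 5 of 7 tested cases and rose in 0 (median -2.17). The shares over all genes were 31.9% lower and 24.1% higher. Without scaling all 7 were called lower, where 62.4% of all genes were. Hmox1, which degrades haem, fell by 3.86 (adjusted p = 0.000757), Blvrb, a biliverdin reductase, by 2.83 (0.001), the ferritin chains Fth1 and Ftl1 by 2.22 (0.00125) and 2.17 (0.000954), and Hp, haptoglobin, by 1.93 (0.00108). Erythroid markers moved with them, with a summed level of 29.3 to 30.0 on AP arrays and 634 to 733 on control arrays, 4 of 5 lower and Slc4a1 at background on AP arrays. That sum is mostly the globin Hbb, and the fifth marker, Hemgn, rose by 1.22 (adjusted p = 0.00287), or 0.26 and not called without scaling. The part of erythroid markers in the result was not tested.

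Of 12 tested genes of mononuclear phagocyte identity, 4 were lower, 2 higher and 6 not past the threshold (median -0.02), close to the shares over all genes, 31.9% lower and 24.1% higher. Spi1, which encodes PU.1, rose 2.41-fold, with 5.54 and 5.66 on the AP arrays against 4.35 and 4.31 on the control arrays (log2 fold change 1.27 ± 0.10, SE, adjusted p = 0.00277), although its unscaled change of 0.31 was not called. Tyrobp, the adaptor of activating receptors, fell by 1.94 in log2 (0.00227), while Itgam, the CD11b integrin chain, was at least 1.55-fold lower (0.00577).

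Resident and lymphoid tissue macrophage genes had 4 lower, 3 higher and 4 not past the threshold among 11 tested (median -0.02). For this list and the next, the shares over all genes were 31.9% lower and 24.1% higher. The lectin Clec10a fell by 3.21 (adjusted p = 0.000699), the ligand of phagocytic receptors Gas6 by 1.95 (0.00131) and the hyaluronan receptor Lyve1 by 1.09 (0.00818), while Clec4a3, a C-type lectin, rose by 0.99 (0.0074) and stood at 0.03 without scaling. Genes of recruited monocytes and activated macrophages were mostly lower, 11 of 15 tested, with 2 higher and 2 not past the threshold (median -2.08). Arg1, an arginase of activated macrophages, was at least 16.1-fold lower, and the log2 fold changes of the calcium-binding protein S100a4, fibronectin (Fn1) and the chemokine receptor Ccr1 were -4.53, -4.52 and -3.76, with adjusted p of 0.000603 to 0.000736. Several of these genes are made by other cells too, and fibroblast markers had a summed level of 18.5 to 21.6 on AP arrays and 75.6 to 77.0 on control arrays, over the 4 with a value on every scan. Of 6 such markers 5 were lower, 2 of them (Dcn and Sparc) with a value on 1 control array. Their part in the result was not tested. Without scaling, 8 of 12 phagocyte identity genes and 5 of 11 resident macrophage genes were called lower and 0 higher, and 13 of 15 recruited monocyte genes were called lower, where 62.4% of all genes were lower and 5.31% higher, so the shares of the phagocyte identity and resident lists do not stand out.

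Receptors for antibody, listed together with Milr1, had 4 genes higher, 2 lower and 1 not past the threshold among 7 tested (median 0.41). Beside this, 24.1% of all genes were higher and 31.9% lower. Without scaling the balance turned, with 1 higher and 4 lower (median -0.55), where 5.31% of all genes were higher and 62.4% lower. Fcgr1a, the high-affinity receptor for IgG on monocytes and macrophages, fell by 3.72 in log2 (adjusted p = 0.00159), and Fcgr2a was at least 2.06-fold lower (0.00466). Fcer2, the low-affinity IgE receptor found mainly on B cells, rose by 3.25 (0.000966), and Milr1, an inhibitory receptor of mast cells, by 1.18 (0.0139), or 0.22 and not called without scaling. The plot of related genes shows these values beside the 8 macrophage genes.

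**Figure D4:**
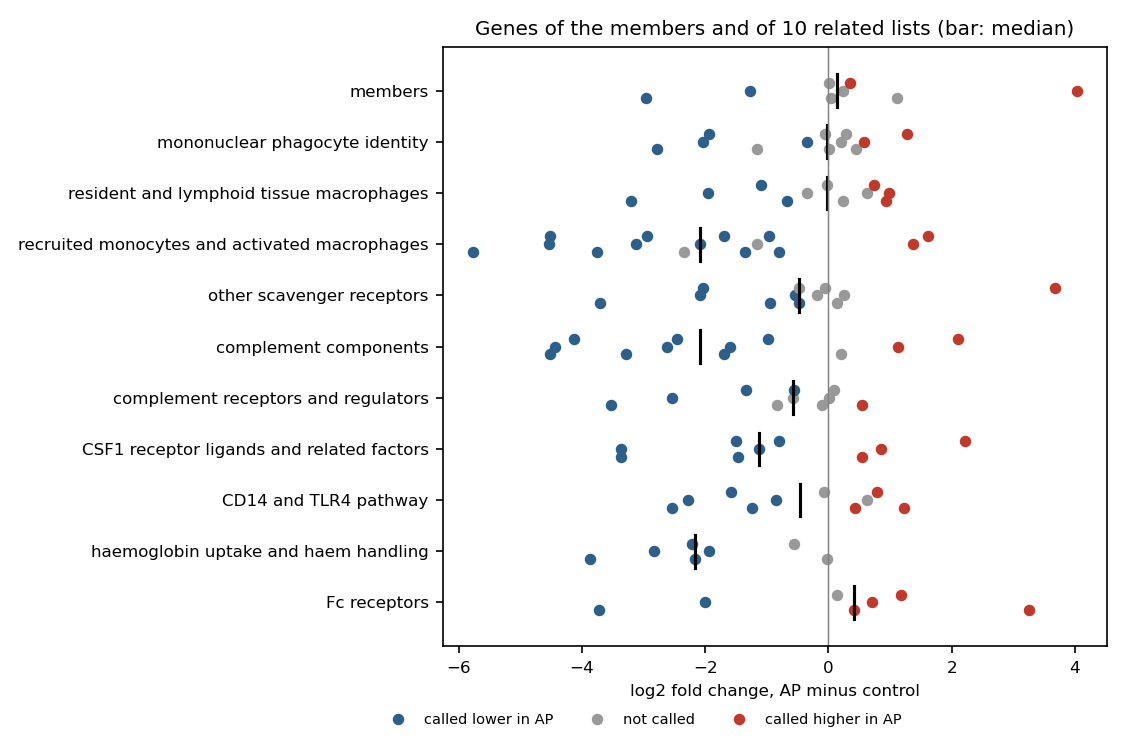
Log2 fold change (AP minus control, horizontal axis) of each tested gene of the 8 members (top row) and of 10 related lists, coloured by call; black bars are medians. Recruited monocyte, complement component and haem genes lie mostly below 0, with medians of -2.08, -2.07 and -2.17, while the phagocyte identity list has a median of -0.02.

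Markers of other cell types also differed between the groups, some higher and some lower, and their part in these results was not tested. Beside the counts below, 24.1% of all genes were higher and 31.9% lower. B cell markers were higher for 4 of 5 genes, with a summed level of 9.11 to 9.23 on AP arrays and 0.88 to 0.95 on control arrays, where Cd79b was at background. Dendritic cell markers were higher for 3 of 3 tested genes, with summed levels of 7.99 to 9.06 on AP arrays and 2.17 to 2.40 on control arrays. Neutrophil markers were lower for 3 of 4 tested genes, with a summed level of 0.81 to 1.70 on AP arrays, where S100a8, Csf3r and Mmp8 were at background, and 21.9 to 24.0 on control arrays. Duct markers were lower for 3 of 3 tested, at 4.62 to 4.63 on AP arrays and 17.2 to 18.1 on control arrays, with Cftr at background in both. The 3 endothelial markers with a probe summed to 1.13 to 1.17 on AP arrays and 1.63 to 1.83 on control arrays. That sum is mostly Tek, the 1 tested, which was lower (log2 fold change -0.71, limma, adjusted p = 0.0163). Pecam1 and Cdh5 were at background on AP arrays, and Cdh5 on control arrays.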

How the data were processed

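RNA of rat pancreas was measured on 1-colour Agilent arrays. Per the labels, the RNA was depleted of ribosomal RNA and labelled with Cy3 by random priming. Per the submitters' processing notes, scans were read with Agilent Feature Extraction 11.0.1.1, and the deposited scanner files give a background-subtracted intensity per spot, not scaled between arrays. The deposited table holds normalized log2 values, made by a tool not given in the sources used here.

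Spots with an outlier mark were left out, the 75th percentile of each scan was subtracted from log2 intensity, and repeat scans of an array were averaged. Probes well above background on at least 3 scans, 13220 in all, entered limma 3.58.1 (R 4.3.3, lmFit and eBayes, two-sided, Benjamini-Hochberg over all probes, threshold 0.05). The brightest probe stood for a gene. The normexp alternative used median spot and background intensities, where the plan had named mean spot intensities. The fit was tested on simulated data. Tables used Python 3.11.15, numpy 2.4.6 and pandas 2.3.3, and figures matplotlib 3.10.9.

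Named genes were all 10 members, of each related list up to 4 called genes with the largest change and every called gene where 5 or fewer were called, and C1r, C1s, C3, C4a, C4b, Serping1, Csf1, Il34, Tlr4, Ly96 and Lbp whatever their result; a few genes under this rule are not reported here. Members, lists and motifs were chosen with earlier results of these data known. Bounds use the lowest signal well above background on a scan, or the probe's own where higher. Promoter windows come from RefSeq on GRCr8, a later assembly than that of the array design, so no probe positions were used.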

Additional observations from a re-analysis of the deposited data

How the results depend on the processing

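Cd14 and Mrc1 were called lower under all 20 alternatives, of which 2 (marked spots kept, and a crossed pairing) were chosen after seeing the data. Marco was called higher under 17 of the 19 that gave a value, and Cd68 was not called under any of 18. The count of genes called higher among the members was 1 instead of 2 with normexp background and the 75th percentile, cyclic loess, no scaling, probes above background on all 6 scans, scans 1 and 3 only, and the replicate block, and 0 to 1 when 1 array was left out. It was 3, with C1qb added, under quantile normalization, normexp with quantile, the deposited values, and 6 scans as separate replicates. C1qb was thus called higher under 4 alternatives, lower under 1 and not called under 15. With the deposited values its log2 fold change was 0.39 (limma, adjusted p = 0.0389). The count called lower was 6 instead of 2 with no scaling. There the log2 fold change was -0.60 for Csf1r, -0.95 for C1qa, -0.72 for C1qb and -0.92 for C1qc; with normexp and the 75th percentile Csf1r stood at -0.10 (adjusted p = 0.791). The cause was not tested, except that no scaling keeps the dimmer signal of the AP arrays. Of all 13220 probes, 7282 were called, 2655 with normexp and the 75th percentile, 9654 with 6 scans as separate replicates, 5518 with the replicate block, and 4638 to 5842 without 1 array. The replicate numbers did not pair the arrays (r = -0.21 between deviations of same-numbered arrays over 13149 probes), and Csf1r lost its call under the replicate block (adjusted p = 0.121). Crossing the numbers gave 7291 probes called and 1 member higher. Values of Marco on control arrays and of Cd163 on all arrays are limited by background.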
